A study of Homo sapiens with 12 samples.

Results

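MDST8, an established colorectal cancer cell line, was compared with HUTU-80 and NCI-H716, the other lines of the series, on 12 arrays with 4 arrays per line. A gene was described as a marker of MDST8 when all 4 MDST8 arrays lay at least 2 log2 units above, or at least 2 log2 units below, every one of the 8 arrays of the other lines. Of 19738 genes, 391 met that condition above the other lines and 116 below them. With values below the background level of the arrays (5.43) set to that level (the floor at background), 221 and 53 of them did. The labels of all arrays describe cells with methylated miR-200 loci, transduced with lentivirus, sorted for GFP after 48 hours and harvested for RNA on day 7. In MDST8 and in NCI-H716 the arrays were 1 control, 1 with the miR200c141 construct, 1 with miR200ba429 and 1 with both, the last made by a second virus 24 hours after the sort. HUTU-80 had 1 control, 2 arrays with miR200c141 and 1 with miR200ba429, and no array with both. The labels do not say which virus, if any, the controls received. Nor do they say what the endings 1:3 and 1:5 mean that tell apart the miR200c141 arrays of HUTU-80. Each group is a single cell line, so a difference between MDST8 and the others belongs to these lines and not to a class of tumours.

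Intestinal epithelial cells are held together by E-cadherin, EPCAM and desmosomes, are filled with keratins and are kept in their identity by factors such as CDX2 and FOXA1. In an epithelial to mesenchymal transition (EMT), factors of the SNAI, TWIST and ZEB families repress that programme while matrix genes, vimentin and N-cadherin are made. The miR-200 microRNAs act against ZEB1 and ZEB2. HUTU-80 is known as a line from the duodenum, and NCI-H716 as a line with neuroendocrine features that makes glucagon-like peptides.

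All values are log2 intensities, made by the authors with RMA, of the brightest probe set of each gene, and values of MDST8 are given in the order control, miR200c141, miR200ba429 and both. The background level was 5.43, the highest value of the 23 manufacturer's control probe sets named as nonspecific. A difference against values below that level is only a lower bound, counted from 5.43. The lowest correlation between 2 arrays of a line was 0.978, and the highest between lines 0.885. The 2 HUTU-80 arrays with miR200c141 correlated at 0.995. Between 48.5% and 48.9% of genes were above background in MDST8, 46.6% to 47.2% in HUTU-80 and 47.5% to 48.0% in NCI-H716. The 3′ minus 5′ difference of the ACTB control probes, a sign of RNA integrity, was 1.50 to 2.02 log2 units in MDST8 (2.02 on the array with both constructs, at most 1.54 on the others), 2.10 to 2.39 in HUTU-80 and 2.33 to 2.63 in NCI-H716, so MDST8 did not overlap the others. For GAPDH it was 0.277 to 0.383, 0.269 to 0.380 and 0.271 to 0.351, which overlapped. The part of RNA integrity in the differences between lines was not tested.

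Promoter windows are shown for 4 of the genes that were on in MDST8 and off in the other lines, or the reverse, because they show that genes with many and with few CG dinucleotides were found on either side. Each window runs from 250 bases before to 50 bases after the gene's start (RefSeq, GRCh38.p14), is written 5′ to 3′ on the gene's strand, and has its CG dinucleotides in capitals. BNIP3, at chr10:131981874-131982173 on the minus strand, held 48 of them.
BNIP3: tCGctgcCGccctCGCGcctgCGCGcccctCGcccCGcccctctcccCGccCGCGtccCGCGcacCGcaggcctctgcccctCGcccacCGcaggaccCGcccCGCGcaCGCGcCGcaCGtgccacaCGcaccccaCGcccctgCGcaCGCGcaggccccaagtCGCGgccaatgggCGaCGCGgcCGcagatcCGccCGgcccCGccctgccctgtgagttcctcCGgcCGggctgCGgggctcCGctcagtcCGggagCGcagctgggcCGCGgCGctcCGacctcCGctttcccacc
GPNMB, at chr7:23246525-23246824 on the plus strand, held 3.
GPNMB: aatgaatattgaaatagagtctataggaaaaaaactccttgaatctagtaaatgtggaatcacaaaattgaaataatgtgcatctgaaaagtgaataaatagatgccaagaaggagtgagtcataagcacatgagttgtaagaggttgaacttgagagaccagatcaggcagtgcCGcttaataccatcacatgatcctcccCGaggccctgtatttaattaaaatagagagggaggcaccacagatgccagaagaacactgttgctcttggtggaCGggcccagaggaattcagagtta
CENPV, absent from MDST8 and at chr17:16353420-16353719 on the minus strand, held 44, as well as the motif CAGGTG, an E-box core that SNAI and ZEB factors can bind.
CENPV: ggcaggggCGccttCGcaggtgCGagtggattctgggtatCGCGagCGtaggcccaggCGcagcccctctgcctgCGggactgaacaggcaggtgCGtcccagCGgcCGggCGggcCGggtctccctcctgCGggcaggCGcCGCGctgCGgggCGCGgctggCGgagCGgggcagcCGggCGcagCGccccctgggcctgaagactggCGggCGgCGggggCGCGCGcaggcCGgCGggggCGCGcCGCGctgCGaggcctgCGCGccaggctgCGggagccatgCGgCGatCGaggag
GCG, at chr2:162152198-162152497 on the minus strand and also off in MDST8, held 2 CG dinucleotides and the TATA motif TATAAA.
GCG: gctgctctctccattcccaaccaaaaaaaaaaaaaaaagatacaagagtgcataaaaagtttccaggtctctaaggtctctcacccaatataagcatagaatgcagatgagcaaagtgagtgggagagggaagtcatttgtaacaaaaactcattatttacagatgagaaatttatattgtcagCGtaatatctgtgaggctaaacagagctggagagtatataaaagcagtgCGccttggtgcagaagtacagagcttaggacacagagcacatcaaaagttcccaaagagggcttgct
Among all 35116 windows of the table the quartiles were 4, 14 and 28 CG dinucleotides, 20.6% held CAGGTG and 11.5% held TATAAA, each counted on either strand. The 2 motifs do not overlap in letters. Windows were found for 390 of the 507 genes (76.9%), too few to compare the genes with the rest of the genome, and no methylation was measured on these arrays.

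Among all genes tested, 1.98% lay at least 2 log2 units above and 0.588% at least 2 below the other lines. Averaging the probe sets of each gene gave 279 and 73 genes. The condition gave 216 genes above and 238 below in HUTU-80, and 463 above and 217 below in NCI-H716. Most genes of the condition lay on opposite sides of the background level in MDST8 and in the other lines, which a choice by a wide gap favours. The share over all genes was not counted. Some were little above that level, such as HOXD8 and EN2, by 0.76 and 0.77 log2 units on average in MDST8. Of the 391 higher genes, 283 were above background on all 4 MDST8 arrays and below it on all 8 others, and 97 of the 116 lower genes showed the reverse. As measured, with no floor at background, the gap to the nearest array of another line had a median of 3.15 log2 units for the higher genes and was at least 4 for 101 of them. For the lower genes the median gap was −3.07, and 24 genes were at least 4 apart. Just inside the threshold lay IKBKE (2.00), RASGRP3 (2.01), PCDHGA4 (2.02), RND3 (2.02) and SPOCD1 (2.03) above, and PCSK6 (−2.01), DSC2 (−2.02), H2AC11 (−2.02), LRRC8B (−2.03) and MNX1 (−2.05) below. Just outside it lay STK17B (2.00), GUCY1A2 (2.00), LYPD1 (1.99), HTRA1 (1.99) and ZNF85 (1.99), and on the lower side TAF4B (−2.00), NTS (−1.96), QPRT (−1.95), ALDH3A2 (−1.95) and RAB26 (−1.93). These genes were chosen by their values, which are therefore given without a test.

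In the control arrays alone, every one of these genes was also at least 2 log2 units apart, as the condition requires. The difference from the nearer of the other 2 controls had a median of 4.13 for the higher genes, from 2.08 for LOXL2 to 9.56 for SFRP1, and was at least 4 for 205 of them. For the lower genes it had a median of −3.83, from −2.13 for RAD50 to −9.94 for GCG, and was at least 4 units for 49. The controls alone gave longer lists, of 696 genes above and 226 below. Of these, 56.2% and 51.3% were apart on all arrays, while 305 and 110 were not. Some of the latter, named here after their values were seen, fell out because the MDST8 arrays with constructs had other values. MMP1, an interstitial collagenase, read 11.74, 9.09, 10.58 and 6.80 in MDST8 against a highest value of 6.02 elsewhere. FABP4, a fatty acid carrier, read 10.06, 8.47, 9.55 and 4.90, and the cytokine IL1B 8.91, 5.02, 6.90 and 4.73. On the lower side IFIH1, a sensor of viral RNA, read 5.91, 6.98, 5.49 and 8.18 in MDST8 against 9.63 to 12.05 elsewhere. With 1 control array per line these lists have no replicate.

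Probe sets that the choice of the brightest did not use gave a further reading of the same RNA, described here without a test. Of the 391 higher genes, 252 had other probe sets, 528 in all, and 460 of these (87.1%) were higher in MDST8 on average, with a median difference of 1.59. All 4 MDST8 arrays lay above the others by at least 1 log2 unit in 247 of them and by at least 2 in 161. Of the 528, 273 were below background on all 12 arrays and could show little difference. Of the 255 that reached it on some array, 254 were higher in MDST8, so many of the 460 were among the dim ones. A probe set of these genes can reach background through the MDST8 arrays alone. The 254 of 255 therefore follow in part from the filter and are not given as support. The brightest of COL1A1's others differed by 4.42 log2 units, but 3 more were below background and differed by 0.65, −0.22 and −0.18. For LOXL2 all 3 others were below background, with differences of 0.19, −0.00 and −0.08, and for L1CAM the single other one differed by −0.02. LOXL2 and L1CAM thus rest on 1 probe set each, and they were not alone in this. All others of GATA4, ENG, ADAMTS12, ADAM19 and ACTA2 were below background too, with differences from −0.09 (ACTA2) to 0.23 (ADAM19). The same held for FGFR3 and EFNA2 among the lower genes, with differences from −0.04 to 0.01 (both EFNA2). Of the 116 lower genes, 73 had 139 other probe sets, of which 126 (90.6%) were lower in MDST8, 46 of them by at least 1 and 29 by at least 2 log2 units on every array, and 68 were below background throughout.

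A linear model over all genes (limma) called 2710 genes higher in MDST8 than in both other lines (13.7%) and 2230 lower (11.3%), with an adjusted p under 0.05 in each contrast. The contrasts share the MDST8 arrays, and p measures only the spread between arrays of a line, which differ in construct and are not labelled as separate cultures. The split of these calls depended on the centring. Over genes the median of the MDST8 arrays was 0.254 log2 units above that of the other lines. Such an offset was not seen in the median of the differences of single genes (−0.04). Nor was it seen in the array medians over all probe sets, 3.60 to 3.66 in the series. With each array centred on its median over genes, 1836 genes were called higher and 4892 lower. That moved the share of higher calls from 54.9% to 27.3%. Limma counts for gene lists are therefore given both ways below. The lists come from textbook knowledge and share some members, such as AXL and INHBA.

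The label of colorectal cancer was checked against defining markers. Of 9 markers of intestinal epithelium (CDX1, CDX2, VIL1, KRT20, CDH17, GPA33, LGALS4, EPCAM and CDH1), all were below background on all MDST8 arrays. Their summed log2 level was 30.2 to 31.6 in MDST8, 33.0 to 42.7 in HUTU-80 and 58.5 to 74.8 in NCI-H716, where only 1 of them was below background on all arrays. HUTU-80 had 7 below on all arrays. In the HUTU-80 control all 9 were below background, and EPCAM (9.28 to 10.63) was above it with the constructs. CDH1 was above it with miR200c141 (5.84 and 6.01), but read 5.30 with miR200ba429, just below. The keratin KRT18 was present in MDST8 at 9.89 to 11.79, while its partner KRT8 read 4.61 to 5.58 and KRT19 was below background. The intestinal markers were thus below background in the controls of both MDST8 and HUTU-80, and MDST8 had KRT18 as the only keratin of these 3 above background on all arrays. Among 7 markers of fibroblasts and mesenchyme, VIM, FN1, CDH2, SPARC and THY1 were above background on all MDST8 arrays and PDGFRB was below. DCN read 5.48 in the MDST8 control and 3.00 to 3.04 with the constructs. HUTU-80 also had 5 of these 7 markers, but with DCN (10.62 to 11.24) and without SPARC (at most 3.46), and NCI-H716 had 1. The 4 neuroendocrine markers CHGA, CHGB, SYP and INSM1, the 3 endothelial markers and the 3 measured neuronal and glial markers were all below background in MDST8. LCP1, at 6.54 to 7.30, was the single immune marker present, with PTPRC, CD3E and CD14 below background. ACTA2 was the smooth muscle marker present and MITF the melanocyte marker, without MYH11, DES, MLANA or PMEL.

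**Figure D1:**
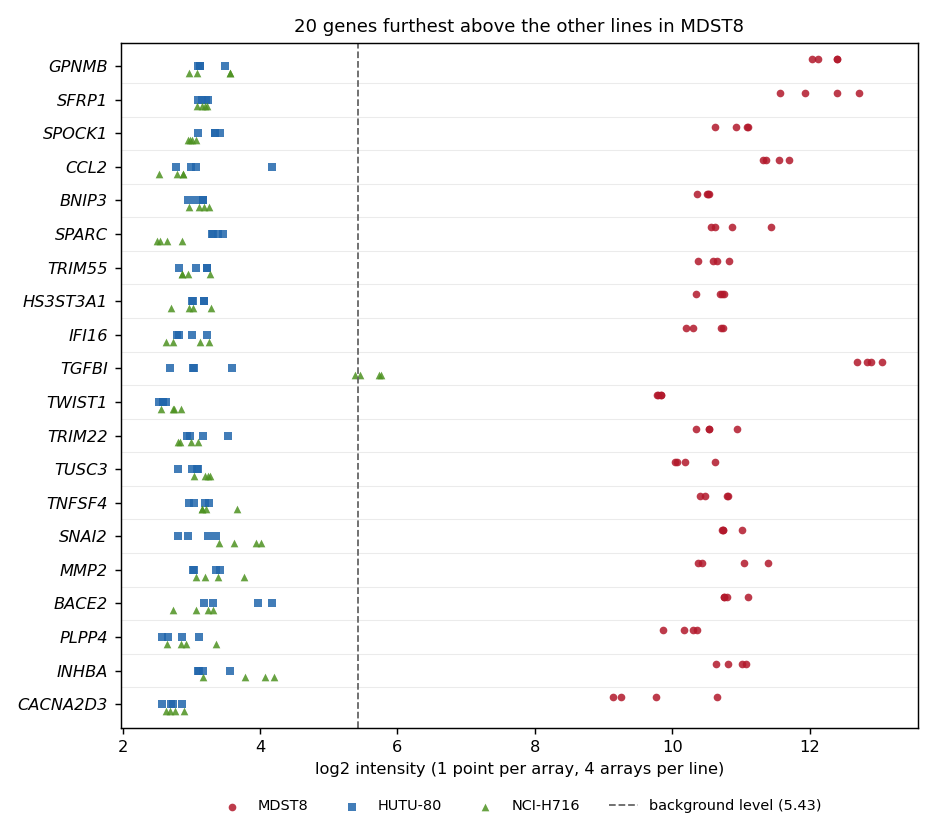
Log2 intensity (x axis) of the 20 genes furthest above the other lines in MDST8 (rows), with 1 point per array, 4 arrays per line, and the background level of 5.43 as a dashed line. All MDST8 points lie at 9.13 or above, and the points of the other lines lie below background except some of NCI-H716 for TGFBI, which reach 5.76.

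The gene furthest above the other lines was GPNMB, a transmembrane glycoprotein of lysosomes and melanosomes. GPNMB read 12.40, 12.40, 12.11 and 12.03 in MDST8 and 2.96 to 3.57 (median 3.12) in the other lines, at least 112-fold higher. SFRP1, a secreted antagonist of Wnt ligands, read 12.71, 11.93, 12.40 and 11.57 against 3.08 to 3.25 (median 3.18), at least 106-fold higher. For neither gene did any array of another line come near the background level. CCL2, the chemokine that draws monocytes, read 11.70, 11.36, 11.56 and 11.33 against 2.53 to 4.17 (median 2.88), at least 66.7-fold higher. BNIP3, a mitochondrial protein of mitophagy, read 10.53, 10.37, 10.54 and 10.50, the other lines gave 2.96 to 3.25, and it varied little between the MDST8 arrays. TUSC3, an oxidoreductase of the glycosylation machinery, read 10.07, 10.19, 10.04 and 10.62 against at most 3.27. HS3ST3A1, a heparan sulfate sulfotransferase, and SPOCK1, a secreted proteoglycan, were at 10.34 to 10.75 and 10.62 to 11.10, and both were at 3.41 or less elsewhere. TRIM55, a RING protein best known from muscle, was at 10.37 to 10.83, and CACNA2D3, a calcium channel subunit, at 9.13 to 10.66. TNFSF4 (the OX40 ligand), BACE2 (a secretase) and PLPP4 (a lipid phosphatase) were also in this group, by at least 5.19, 5.42 and 4.75 log2 units counted from background.

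EMT transcription factors were split. Of 13 measured, SNAI2 and TWIST1 lay at least 2 log2 units above the other lines. Limma called 4 against both lines, all of them higher, and with centred arrays 4 were higher and 2 lower. Without centring it placed 2 others below HUTU-80 and above NCI-H716. TWIST1 read 9.84, 9.79, 9.77 and 9.84 in MDST8 and 2.53 to 2.85 in the other lines, at least 20.8-fold higher. SNAI2 read 10.74, 11.01, 10.72 and 10.73 against 2.81 to 4.02, at least 41.4-fold higher. Both were off in every array of HUTU-80 and NCI-H716 and nearly level across the MDST8 arrays, whatever the construct. ZEB2 was 3.05 log2 units higher in MDST8 than the mean of the other lines (SE 0.397, limma adjusted p 3.82e-04 against HUTU-80 and 7.57e-06 against NCI-H716, n = 4 arrays per line), at 5.42 to 7.97 against 3.04 to 5.11. ZEB1 was present in all 3 lines at 7.15 to 10.15 and did not pass the test (difference −0.35, SE 0.466, adjusted p 0.817 and 0.485). SNAI1 and TWIST2 were below background on every array.

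Mesenchymal and fibroblast markers were the list with the highest share of genes apart. Of 42 measured, 12 were at least 2 log2 units higher (28.6%) and 1 lower (2.38%), or 9 and 0 with the floor at background, and the median difference was 2.17 against −0.04 over all genes. Limma called 23 higher and 4 lower, and 20 and 6 with centred arrays. SPARC, a matrix glycoprotein, read 10.62, 10.87, 10.57 and 11.44 in MDST8 and 2.50 to 3.46 elsewhere, at least 43.6-fold higher. AXL, a receptor tyrosine kinase, read 9.68, 10.27, 10.33 and 10.97 against at most 4.14, at least 29.5-fold higher. AXL was lowest in the control and highest with both constructs, but all arrays stayed far from the other lines. TNC (tenascin C) was at 8.97 to 9.91 against at most 3.84, and the endoglin gene ENG at 7.28 to 7.96 against at most 3.80. VCAN (versican), CAV1 and CAV2 (caveolins) were shared in part with HUTU-80. CAV1 read 12.13, 11.95, 11.88 and 11.98 in MDST8, with means of 8.14 in HUTU-80 and 3.14 in NCI-H716. The lysyl oxidase genes LOXL1 and LOXL2, which cross-link collagen, were at 6.56 to 7.71 and 8.70 to 9.82. LOXL1 was higher by at least 1.87 log2 units counted from background, and LOXL2 lay 2.08 above the nearest array. The exception in the list was CDH11, a mesenchymal cadherin, at 3.02 to 3.61 in MDST8 and 6.82 to 10.82 elsewhere. VIM was high in all lines and 1.40 log2 units higher in MDST8 (SE 0.176, limma adjusted p 4.00e-04 and 3.67e-06). FN1 (fibronectin) read 12.38 to 12.96 in MDST8, 12.39 to 12.67 in HUTU-80 and at most 4.45 in NCI-H716, and CDH2 (N-cadherin) 9.62 to 9.73, 9.30 to 9.88 and at most 3.36. Neither passed the test against HUTU-80 (limma adjusted p 0.349 and 0.492).

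**Figure D2:**
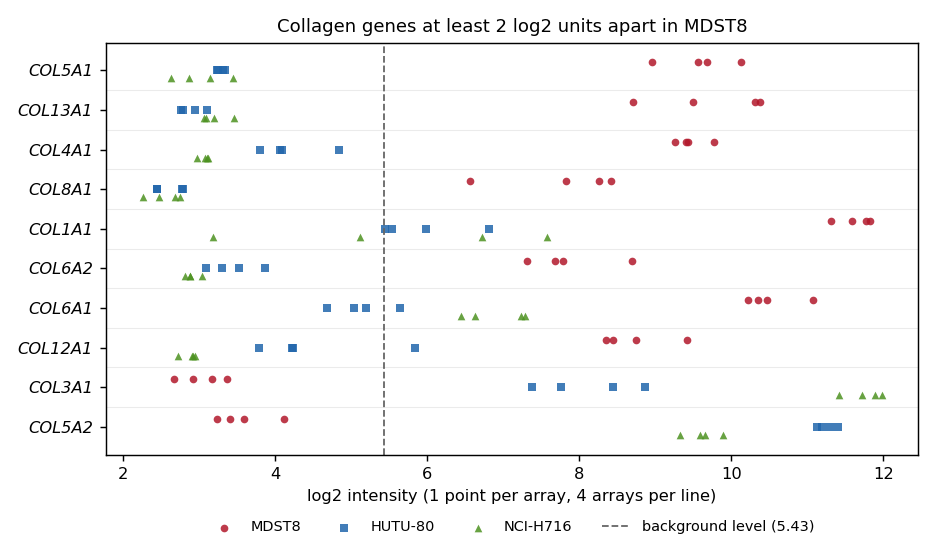
Log2 intensity (x axis) of the 10 collagen genes at least 2 log2 units apart in MDST8 (rows), 1 point per array and 4 arrays per line, with the background level of 5.43 dashed. In MDST8 8 genes lie above all other arrays, and COL3A1 and COL5A2 lie below background while both other lines have them.

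Collagen genes differed in both directions. Of 34 measured, 8 were higher (23.5%) and 2 lower (5.88%), or 6 and 1 with the floor, with a median difference of 0.20. Limma called 14 higher and 2 lower, and 11 and 6 with centred arrays. COL1A1, a chain of fibrillar type I collagen, read 11.31, 11.83, 11.59 and 11.78 in MDST8 and 3.19 to 7.57 elsewhere. COL5A1 read 8.96, 10.12, 9.57 and 9.68 against at most 3.45. Its partner chain in type V collagen, COL5A2, showed the reverse, at 3.24, 3.60, 3.41 and 4.12 in MDST8 and 9.33 to 11.41 (median 10.51) in the other lines, at least 32.2-fold lower. COL3A1, a fibrillar collagen next to COL5A2 on chromosome 2, was also off in MDST8, at 2.67 to 3.37, and read 7.37 to 11.98 elsewhere. Basement membrane collagen COL4A1 was at 9.26 to 9.78 against at most 4.84. COL4A2, its partner, was 4.77 log2 units higher (SE 0.347, limma adjusted p 5.69e-09 and 4.93e-06). The microfibrillar chains COL6A1 and COL6A2, neighbours on chromosome 21, were both higher, at 10.22 to 11.07 and 7.32 to 8.70. COL8A1 read 8.42, 7.82, 8.26 and 6.56, and COL13A1 10.38, 9.49, 10.31 and 8.70, with the lowest value on the array with both constructs in each case. COL12A1 was at 8.36 to 9.41.

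Integrins, laminins and matrix proteases were apart in parts. Of 28 integrin and laminin genes, ITGA3, ITGA4, ITGA6 and LAMA1 were higher and LAMA5 lower, or 2 higher and 0 lower with the floor. LAMA1, a laminin chain of embryonic basement membranes, read 8.97, 8.79, 8.41 and 8.50 against at most 3.13. LAMA5, the laminin chain of most adult epithelial basement membranes, read 4.45, 4.57, 4.40 and 4.60 against 7.22 to 8.52. The lines thus differed in which of these laminin alpha chains was above background. Limma called 7 genes of this list higher and 4 lower, and 7 and 8 with centred arrays, so its balance depended on the centring. Among 33 matrix proteases and inhibitors, 7 were higher (21.2%, or 4 genes with the floor). Limma called 17 against both lines, all of them higher, and with centred arrays 17 were higher and 3 lower. Without centring it placed 2 others below HUTU-80 and above NCI-H716. MMP2, a gelatinase, read 11.40, 11.05, 10.38 and 10.43 in MDST8 and 3.03 to 3.76 elsewhere, at least 41.8-fold higher. MMP14, the membrane protease that activates pro-MMP2, was at 7.82 to 8.60 against at most 4.28. PLAUR (the urokinase receptor) was at 9.05 or above and PLAT (tissue plasminogen activator) at 6.56 to 7.29. ADAM19, ADAMTS12 and TIMP3, an inhibitor bound to the matrix, were also higher, by at least 3.11, 2.31 and 1.52 log2 units counted from background. TIMP2, an inhibitor that also takes part in MMP2 activation, was 5.37 log2 units higher (SE 0.263, limma adjusted p 5.74e-07 and 1.92e-11).

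Part of the YAP and TEAD target genes were higher than in both lines. Of 23 measured, AMOTL1, AXL, DLC1, MYOF and FOXF2 were at least 2 log2 units higher (21.7%, or 4 genes with the floor). The median difference was 1.65, and limma called 11 higher than both lines (9 with centred arrays). It placed 7 others, CCN1, CCN2, ANKRD1, AJUBA, LATS2, RBMS3 and TGFB2, below HUTU-80 and above NCI-H716. MYOF, a membrane repair protein, read 11.37, 11.41, 11.13 and 11.12, with means of 4.21 in HUTU-80 and 8.29 in NCI-H716. CCN2, a classical target, was at 9.28 to 10.78 in MDST8, above NCI-H716 (3.59 to 5.30) and below HUTU-80 (12.19 to 12.50), and limma called both contrasts (adjusted p 1.22e-09 and 2.58e-05). Among 29 caveolin, annexin and S100 genes limma called 7 higher and 1 lower, or 6 and 5 with centred arrays. CAVIN2, a coat protein of caveolae, went against CAV1 and CAV2. It read 3.12, 2.99, 2.30 and 2.87 in MDST8 and 6.02 to 10.82 elsewhere.

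Interferon-stimulated genes were higher in MDST8 in part. Of 42 measured, 6 were at least 2 log2 units higher (14.3%, or 4 genes with the floor), the median difference was 1.26, and limma called 19 higher and 2 lower, 17 and 3 with centred arrays. TRIM22, an antiviral ubiquitin ligase, read 10.35, 10.53, 10.54 and 10.94 against 2.81 to 3.53, at least 35.8-fold higher. IFI16, a nuclear DNA sensor that stood outside the list but among the widest gaps, read 10.71, 10.31, 10.20 and 10.74 against 2.63 to 3.26, at least 33.3-fold higher. IFI44 read 8.73, 7.64, 8.19 and 7.22, and IFIT3 8.15, 8.59, 8.44 and 9.08, each with no other array above 4.88. GBP1, UBE2L6 and SP110 were the remaining members. The sensor IFIH1 and the interferon antagonist USP18 went the other way, IFIH1 by −4.35 (SE 0.376, limma adjusted p 9.95e-08 and 7.34e-06) and USP18 by −2.54 (SE 0.174, adjusted p 2.21e-07 and 1.52e-08). Of 30 antigen presentation genes, HLA-DPA1, HLA-DPB1 and CTSS, a protease that trims the class II chaperone, were higher (1 gene with the floor), and limma called 5 higher and 1 lower (5 and 2 with centred arrays). HLA-DPB1 read 7.78, 7.67, 7.80 and 7.24 against at most 3.35, and HLA-DPA1 7.13, 6.56, 7.18 and 6.35 against at most 3.51. The class II genes HLA-DRA, HLA-DRB1 and CD74 and their regulator CIITA were below background on every array of all lines, at 3.76 or less.

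Among 45 chemokine, cytokine and receptor genes, CCL2, CXCL1, CCL28, IL1A, IL1R1 and TNFRSF1B were higher (13.3%, or 1 gene with the floor). Limma called 18 higher and 1 lower, and 15 and 6 with centred arrays. CXCL1, a neutrophil attractant, read 8.96, 6.75, 7.95 and 7.58 against at most 4.23, and was highest in the MDST8 control. TNFRSF1B, a receptor of tumour necrosis factor, read 7.97, 7.00, 6.92 and 6.84 against at most 3.64. IL1A read 6.99, 5.42, 5.36 and 6.28, so that 2 of its 4 MDST8 values were just below background. Of 26 immune cell markers none was at least 2 log2 units apart, 23 were below background on all 12 arrays, and limma called LCP1 higher. With centred arrays it called 1 higher and 3 lower.

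Wnt pathway genes differed in both directions. Of 62 measured, WNT5A, WNT5B, DKK3, SFRP1 and LEF1 were higher (8.06%) and SP5 was lower (1.61%), or 4 and 0 with the floor. Limma called 8 higher and 9 lower, and 8 and 17 with centred arrays. WNT5A, a ligand that mostly acts without beta-catenin, read 10.94, 11.32, 11.08 and 10.88 in MDST8 and 3.71 to 6.19 elsewhere. DKK3, a secreted protein of the Dickkopf family, read 12.24, 12.28, 12.10 and 12.28, with means of 3.37 in HUTU-80 and 5.81 in NCI-H716. LEF1, a transcription factor that pairs with beta-catenin, read 9.78, 9.93, 9.83 and 9.79 against at most 6.25, and its antisense neighbour LEF1-AS1 was higher as well. WNT5A, WNT5B, DKK3 and LEF1 varied by 0.44, 0.39, 0.18 and 0.16 log2 units between the MDST8 arrays, and SFRP1 by 1.14. SP5, a direct target of beta-catenin signalling, read 3.65, 2.80, 2.96 and 3.52 against 7.35 to 8.94. Among receptors FZD2 was 4.05 log2 units higher (SE 0.182, limma adjusted p 9.31e-07 and 4.61e-12), while the coreceptor LRP6 was lower by 2.04 (difference −2.04, SE 0.115, adjusted p 6.93e-09 and 4.98e-09).

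Genes of the TGF-beta and BMP pathway differed in both directions. Of 55 measured, TGFBR2, TGFBI, INHBA and SMAD3 were higher (7.27%) and SMAD9 lower (1.82%). Limma called 17 higher and 7 lower, 15 and 10 with centred arrays. INHBA, the activin A subunit, read 11.07, 10.81, 11.02 and 10.63 in MDST8 and 3.09 to 4.20 elsewhere, at least 43.8-fold higher. The receptor TGFBR2 read 10.44, 10.19, 10.13 and 10.72 against 6.24 to 7.92. SMAD3, which carries the TGF-beta signal, was at 8.21 to 8.55 against at most 6.18. TGFBI, a target named for its induction by TGF-beta, read 13.05, 12.90, 12.84 and 12.69 against 2.69 to 5.76. SMAD9, which carries the BMP signal, read 5.42, 4.50, 4.91 and 4.45 against 8.41 to 10.36. ID1, ID2 and ID3, known as BMP targets, were lower by limma, with differences of −2.67 (SE 0.207), −2.65 (SE 0.220) and −2.61 (SE 0.137) and adjusted p of at most 1.01e-06. The ligand BMP2 was 2.90 log2 units higher (SE 0.295, adjusted p 4.24e-06 and 3.91e-06).

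Receptor tyrosine kinases and growth factor ligands differed in both directions. AXL and DDR2, a collagen receptor, were higher, and ERBB4, FGFR2 and FGFR3 lower, of 49 receptors measured. With the floor 2 higher and 2 lower ones stayed apart. ERBB4, a neuregulin receptor, read 3.00, 3.16, 3.67 and 3.57 in MDST8 and 8.73 to 10.13 (median 9.43) elsewhere, at least 15.0-fold lower. FGFR2 read 3.46, 3.76, 3.44 and 3.75 against 8.28 to 9.75, at least 13.6-fold lower. FGFR3, at 3.02 to 3.57, stood against 5.82 to 8.66. MDST8 therefore had neither of these fibroblast growth factor receptors above background. FGFR1 was 3.21 log2 units higher (SE 0.169, limma adjusted p 3.61e-05 and 1.30e-11), and EGFR 3.07 higher (SE 0.137, adjusted p 2.17e-12 and 1.33e-05). Among 59 growth factor ligands FGF5, PDGFC, VEGFC and PTN were higher and FGF9, PDGFD and EFNA2 lower, or 2 and 1 of them with the floor. PTN (pleiotrophin) read 8.66, 8.94, 9.13 and 8.92 against at most 3.50, and FGF9 read 3.51, 4.26, 3.50 and 3.90 against 7.70 to 9.57. Limma called 7 receptors higher and 6 lower (6 and 14 with centred arrays), and 10 ligands higher and 6 lower (9 and 10), so the balance of both lists turned with the centring.

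Of 96 developmental transcription factors other than HOX and EMT factors, 8 were higher (8.33%) and 2 lower (2.08%), or 3 and 1 with the floor. The higher ones were EMX2, ZIC1, IRX1, IRX2, FOXF2, SOX9, EN2 and GATA4. EMX2, known from the forebrain and the urogenital tract, read 9.36, 9.31, 9.26 and 8.58 against at most 3.44, and its antisense neighbour EMX2OS was higher too. ZIC1, a neural and mesodermal zinc finger factor, read 8.66, 8.82, 8.72 and 9.05 against at most 3.80. SOX9, a factor of intestinal crypts and of cartilage, read 10.60, 10.87, 10.81 and 10.35, with means of 4.04 in HUTU-80 and 6.74 in NCI-H716. FOXA1, a pioneer factor of endodermal epithelia, read 3.37, 3.25, 3.90 and 3.96 in MDST8 and 8.38 to 8.79 in the other lines, at least 9.06-fold lower. SALL2 was the other lower factor. Limma called 31 of the list higher and 10 lower, 27 and 16 with centred arrays. RUNX1 and RUNX2, factors of blood and bone, were 4.34 (SE 0.171) and 3.54 (SE 0.144) log2 units higher, with adjusted p of at most 2.41e-07. Of 29 HOX genes only HOXD8 was apart by the condition, at 5.83 to 6.61, which is only at least 0.76 log2 units counted from background.

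**Figure D3:**
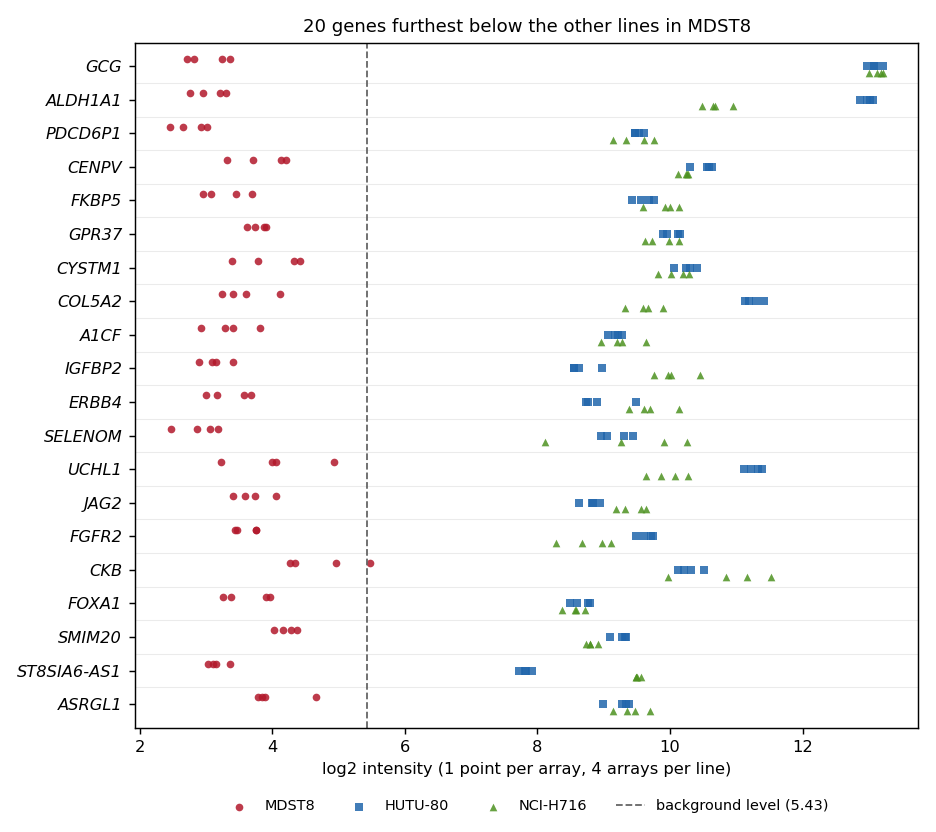
Log2 intensity (x axis) of the 20 genes furthest below the other lines in MDST8 (rows), 1 point per array and 4 arrays per line, with the background level of 5.43 dashed. All points of HUTU-80 and NCI-H716 lie at 7.72 or above, and MDST8 lies at 5.48 or below throughout.

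The gene furthest below the other lines was GCG, which encodes proglucagon, the precursor of glucagon and the glucagon-like peptides. GCG read 3.24, 2.72, 2.81 and 3.36 in MDST8 and 12.97 to 13.21 (median 13.11) in the other lines, at least 205-fold lower. DPP4, the peptidase that cleaves the glucagon-like peptides and the neighbour of GCG on chromosome 2, read 3.14, 2.92, 3.54 and 3.22 against 7.46 to 8.87. Both other lines had both genes on every array. Among 30 neuroendocrine and enteroendocrine markers, UCHL1, a neuronal deubiquitinase, was also lower, at 3.22 to 4.93 against 9.64 to 11.39. CCK, the gut hormone cholecystokinin, was higher, at 7.41, 7.62, 8.08 and 8.85 against at most 3.44. Limma called 9 of this list lower and 2 higher, 11 and 2 with centred arrays. The second higher gene was SNAP25, a vesicle fusion protein, by 3.91 log2 units (SE 0.145, adjusted p 1.48e-13 and 1.68e-04). CHGA, CHGB and SYP were called lower by limma, but were below background on all arrays of both MDST8 and HUTU-80. Their means were 2.92, 3.92 and 3.37 in MDST8 and 3.51, 4.65 and 4.29 in HUTU-80. NCI-H716 had CHGA (9.79) and CHGB (11.18) but was below background for SYP too (4.79). L1CAM, the single neuronal marker of the condition, was at 9.92 to 10.77 in MDST8 and 5.84 to 7.36 elsewhere. Of 21 neuronal and glial genes limma called 3 higher and 4 lower (3 and 6 with centred arrays).

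ALDH1A1, an aldehyde dehydrogenase that makes retinoic acid, read 3.30, 2.75, 2.96 and 3.20 in MDST8 and 10.49 to 13.06 (median 11.91) elsewhere, at least 84.7-fold lower. ALDH2, the mitochondrial enzyme of acetaldehyde breakdown, read 3.05, 2.66, 2.75 and 3.56 against 7.29 to 10.71. The retinoic acid receptor gene RARB was lower too, at 3.49 to 4.18 against 6.32 to 7.89. CENPV, a centromere protein, read 4.13, 4.20, 3.71 and 3.31 against 10.12 to 10.63, at least 30.7-fold lower. FKBP5, a cochaperone of steroid receptors, was at 2.95 to 3.70 against 9.43 to 10.13, at least 20.1-fold lower. A1CF, the partner of the APOBEC1 editing enzyme of the gut, was at 2.92 to 3.81 against 8.96 to 9.64. IGFBP2 (an insulin-like growth factor binding protein), GPR37 (an orphan receptor), CYSTM1, SELENOM, JAG2 (a Notch ligand), SMIM20, ASRGL1 and ST8SIA6-AS1 were also among the widest gaps, with differences of at least 3.23 (ST8SIA6-AS1) to at least 4.73 (CYSTM1) log2 units counted from background. CKB (brain creatine kinase) lay 4.49 log2 units below the nearest array (gap −4.49). PDCD6P1, at 2.46 to 3.02 against 9.13 to 9.75, is a pseudogene whose probes may also read its parent gene.

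Part of the epithelial junction genes were lower than in both lines. Of 34 measured, 4 were at least 2 log2 units lower (11.8%, or 2 genes with the floor), the median difference was −1.59, and limma called 12 (20 with centred arrays), all of them lower. JUP (plakoglobin), which links desmosomes and adherens junctions, read 3.08, 4.37, 4.03 and 4.13 in MDST8 and 7.91 to 8.41 elsewhere, at least 6.49-fold lower. DSP (desmoplakin), the plaque protein of desmosomes, read 4.93, 7.28, 5.38 and 7.87 against 10.65 to 11.44. DSP was lowest in the control and highest with both constructs, yet no array came within 2 units of the other lines. DSC2, a desmosomal cadherin, was at 2.76 to 3.12 against 5.14 to 11.13, and SPINT2, an inhibitor of surface proteases, at 2.79 to 3.19 against 5.54 to 10.37. EPCAM was 6.61 log2 units lower on average (difference −6.61, SE 0.912, limma adjusted p 7.09e-04 and 1.23e-05). It read 3.31 to 3.52 in MDST8, but 4.42 in the HUTU-80 control, also below background, against 9.28 to 10.63 in HUTU-80 with the constructs. The difference from HUTU-80 therefore came from the arrays with constructs, and in the controls it was −0.90. In NCI-H716 EPCAM read 9.29 in the control and 11.61 to 12.38 with the constructs. CDH1 read 3.03 to 3.77 in MDST8 and passed the test against NCI-H716 (adjusted p 0.00194) but not against HUTU-80 (0.112). In the controls CDH1 was below background in all 3 lines, at 3.14 in MDST8, 3.20 in HUTU-80 and 4.01 in NCI-H716, and it read 6.64 to 9.03 in NCI-H716 with the constructs. Of 28 intestinal epithelium markers none was apart from both lines by 2 log2 units. Their median difference from the mean of the other lines was −1.94, and none was above background on all MDST8 arrays. Limma called 2, CDX2 and AGR2, both lower (6 with centred arrays, all lower). CDX2 was below background in both MDST8 and HUTU-80 (means 3.37 and 3.95). VIL1, KRT20, CDH17, GPA33 and LGALS4 differed by −0.14 to −0.01 from HUTU-80 and by −7.58 to −1.87 from NCI-H716. EPCAM and CDH1 differed from HUTU-80 by −5.27 and −1.80.

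**Figure D4:**
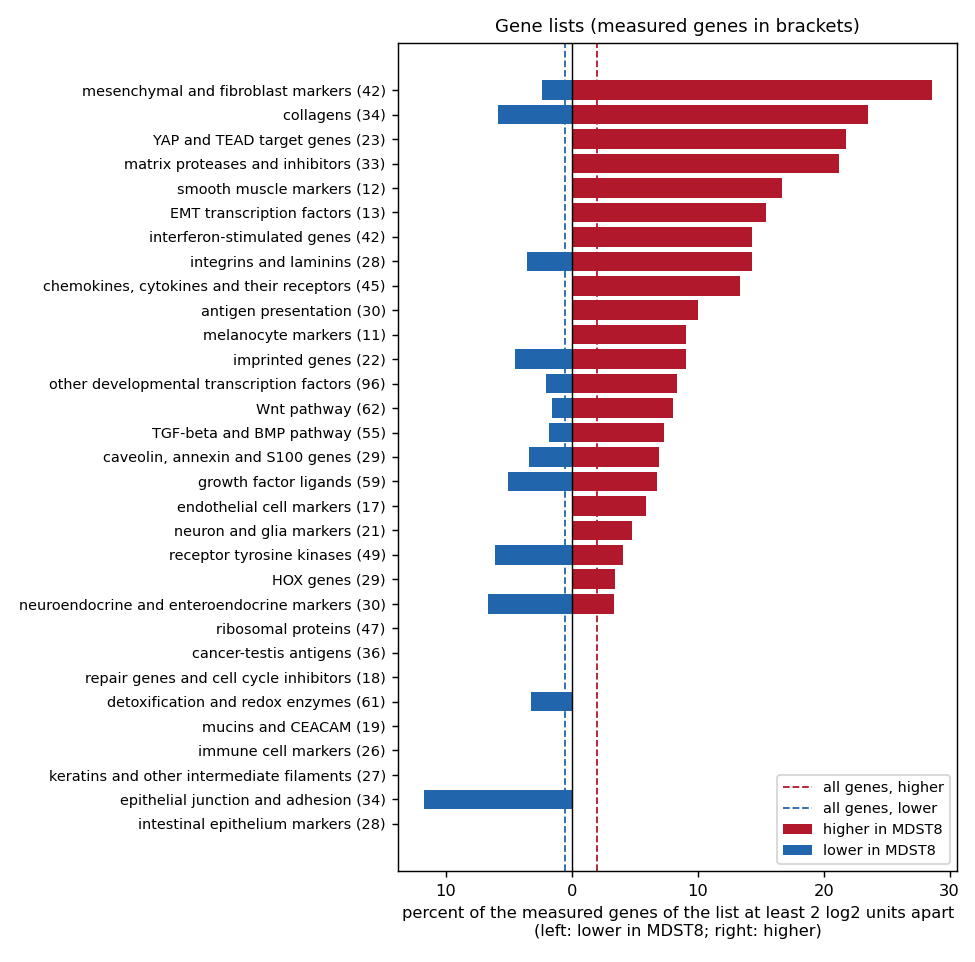
Share of the measured genes of each list, in percent (x axis), that lay at least 2 log2 units above (right) or below (left) all arrays of the other lines in MDST8, with the number of genes measured in brackets and the shares over all genes, 1.98% and 0.588%, as dashed lines. The mesenchymal list has the highest share above (28.6%) and the epithelial junction list the highest share below (11.8%), although with the floor at background 2 of 34 junction genes stay apart, as do 2 of 30 neuroendocrine markers.

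Other lists held few genes of the condition or none. GPNMB was the single melanocyte gene of 11, and ACTA2 and MYLK were those of 12 smooth muscle genes. Limma called 3 melanocyte genes, all of them higher, or 1 each way with centred arrays, and 3 smooth muscle genes higher and 1 lower either way. Without centring it placed 1 other melanocyte gene below HUTU-80 and above NCI-H716. ACTA2, smooth muscle actin, read 9.99, 9.16, 9.46 and 9.43 against at most 7.04. Of 22 imprinted genes SNRPN and NDN, from the Prader-Willi region, were higher and MEST was lower, of which 0 stayed apart with the floor. NDN read 9.13, 8.28, 8.80 and 6.42 against at most 3.65, MEST 3.19, 3.51, 3.27 and 3.44 against 6.93 to 10.52. IPW, a noncoding transcript of the same region, was higher as well, at 9.14 to 9.31 against at most 3.07. No gene of the condition was found among 19 mucin and CEACAM genes, 36 cancer-testis antigens, 27 keratins and other intermediate filaments, 18 repair genes and cell cycle inhibitors and 47 ribosomal proteins. Limma called 1 repair gene higher and 4 lower (1 and 6 with centred arrays), and with centred arrays 2 mucin and CEACAM genes lower. The ribosomal proteins were above background on all MDST8 arrays, and limma called 5 lower, or 18 with centred arrays. ALDH1A1 and ALDH2 were the genes of the condition among 61 detoxification and redox enzymes, and 1 of the pair stayed apart with the floor. Limma called 6 of these enzymes higher and 8 lower (6 and 15 with centred arrays). Among 17 endothelial markers ENG was the gene of the condition and did not stay apart with the floor. Limma called 2 endothelial markers higher, or 2 higher and 5 lower with centred arrays. Limma called 6 cancer-testis antigens higher and 1 lower (5 and 8), 5 keratins and filaments higher and 3 lower (3 and 7), 4 HOX genes higher and 5 lower (2 and 8) and 4 imprinted genes each way (4 and 6). In the antigen and filament lists the majority thus turned with the centring.

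Most of the genes varied by less than 1 log2 unit within MDST8, with 128 of the 391 higher and 18 of the 116 lower genes above that. The range over the 4 MDST8 arrays had a median of 0.747 log2 units among the higher genes and 0.623 among the lower ones, against 0.428 over all genes. A range over 2 was found in 26 of the higher genes and in DSP among the lower ones. Each MDST8 construct had 1 array, so these differences have no replicate. ZBED2, a transcription factor, had the widest range, at 6.43, 10.82, 8.29 and 11.27, and was lowest in the control. LBH read 7.71, 10.88, 9.03 and 10.89, and SERPINB7, a protease inhibitor of epithelia, 6.87, 9.08, 8.81 and 10.60. KRTAP2-3, a hair keratin-associated protein with near-identical relatives that its probes may also read, read 10.19, 11.88, 11.46 and 13.16. In these 4 genes the control was lowest and the array with both constructs highest. The opposite order was seen in SIGLEC15, a sialic acid receptor, at 11.57, 10.91, 11.19 and 8.09, and in TRHDE, a peptidase, at 9.49, 8.60, 9.26 and 6.20. PRSS33, a serine protease, stood out with miR200c141 only, at 8.52, 10.93, 8.24 and 8.17. Over the 391 higher genes the array with both constructs was the lowest of the 4 in 165 and the highest in 100, and its median difference from the control was −0.188. The same array had the highest 3′ minus 5′ differences of MDST8, 2.02 for ACTB against at most 1.54 on the other arrays and 0.383 for GAPDH against at most 0.324, whose part in this was not tested. Over all 19738 genes it was lowest in 6084 and highest in 6452. Without that array 467 genes were higher and 131 lower.

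**Figure D5:**
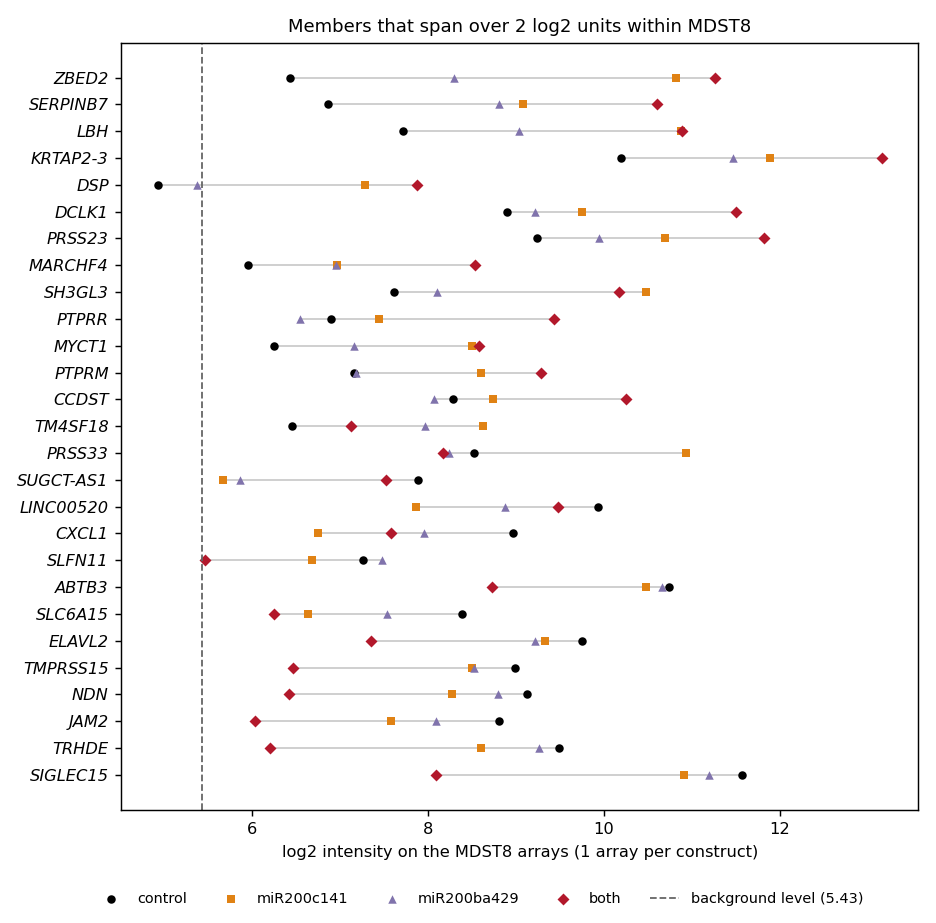
Log2 intensity (x axis) on the 4 MDST8 arrays, 1 per construct, of the 27 genes of the condition (rows) that span over 2 log2 units within MDST8, with the background level of 5.43 dashed and a grey line joining the lowest and highest value. Genes at the top, such as ZBED2 (6.43 to 11.27), are lowest in the control, and those at the bottom, such as SIGLEC15 (8.09 to 11.57), are lowest with both constructs.

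Some of the genes lay next to each other. Of 506 that could be placed among 19693 genes in the order of a RefSeq table, 57 formed 28 runs of neighbours with the same direction. The number of runs that as many genes in random places would form was not counted. The run of 3 was SLFN11, LOC729839 and SLFN12 on chromosome 17. SLFN11, a nuclear protein that blocks stalled replication forks, read 7.26, 6.69, 7.48 and 5.47, and SLFN12, a related ribonuclease, 7.08, 7.60, 7.54 and 7.37, each against at most 3.36. The pairs included CAV1 with CAV2, COL6A1 with COL6A2, HLA-DPA1 with HLA-DPB1, GBP1 with GBP3, EMX2 with EMX2OS and LEF1 with LEF1-AS1. The lower pairs were GCG with DPP4, COL3A1 with COL5A2, and PARP12 with KDM7A. Where such neighbours overlap, as antisense pairs can, the probe sets may read the same transcript. By chromosome, the share of genes above the other lines was highest on chromosome 8 (29 of 714, 4.06%).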

How the data were processed

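Biotin-labelled total RNA was hybridised to Affymetrix U133 Plus arrays (the version with perfect-match probes, by the probe set names). The deposited log2 values are RMA output of the authors, per the submitters' processing notes. Its software and settings were not stated in the labels. They run from 2.05 to 13.77 and were used as deposited. Samples were grouped by the line named in their labels, with no array unassigned. SW620, named in the protocol, was not analysed here.

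Of 54715 probe sets, 102 are controls, 40914 name a single gene, 864 several and 12835 none. By Entrez number 40858 matched a RefSeq gene table. XIST and Y chromosome genes (36) were left out. Each gene was read by its probe set with the highest mean (10537 genes had several).

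Line means were fitted to all 12 arrays with limma 3.58.1 in R 4.3.3 (empirical Bayes with a trend), with Benjamini-Hochberg adjustment over all 19738 genes. Tests are two-sided, and residual degrees of freedom were 9. In simulated data with 100 genes shifted by 1 and 100 by 2 log2 units in MDST8 against both lines, 82% and 97% were recovered with 0 false calls. The simulation shifted only these genes, whereas on the arrays limma called 4181 genes higher and 4710 lower in MDST8 against HUTU-80. Against NCI-H716 it called 5000 higher and 4799 lower. The 0 false calls of the simulation therefore do not tell how many calls on the arrays are false. The number of arrays limits the precision.

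Named genes were the 20 widest gaps in each direction with the brighter side above background, genes of the condition in a list, the 5 just inside and 5 just outside the threshold, cell type markers, runs of 3 or more neighbours and genes with a range over 2 in MDST8. Other list genes tested by limma, and other genes said to be so, were named after their values were seen. The comparison and the 31 gene lists were chosen with earlier results of these data known. Thresholds, probe set choice, centring, floor, filter, construct term and left-out arrays were varied.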

Additional observations from a re-analysis of the deposited data

Results flagged for a closer look

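In 13 of the 162 named genes that met the condition (8.02%), 1 of the 4 MDST8 arrays stood far from the other 3 by Dixon's criterion. Chance gives about 1 in 20. Each MDST8 array carries another construct, so these values have no replicate. The control array stood apart for BACE2 (11.10, nearest other array 10.80), TNFRSF1B (7.97, nearest 7.00), DLC1 (9.28, nearest 10.14), L1CAM (9.92, nearest 10.64) and SPINT2 (2.79, nearest 3.14, all below background). The array with both constructs stood apart for ABTB3 (8.73, nearest 10.48), EMX2 (8.58, nearest 9.26), PDGFC (9.82, nearest 10.52), HS3ST3A1 (10.34, nearest 10.70) and ASRGL1 (4.66, nearest 3.88, below background). With miR200c141 this was so for PRSS33 (10.93, nearest 8.52) and SNAI2 (11.01, nearest 10.74), and with miR200ba429 for GATA4 (5.35, nearest 6.26), which was just below background on that array. Only genes of the condition were checked, so in all 13 the MDST8 arrays lay at least 2 log2 units from the other lines by choice.

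Among the 12835 probe sets with no gene name, which no comparison of genes used, 60 lay at least 2 log2 units above all other arrays in MDST8 (0.467%) and 19 below (0.148%). The widest gaps were 6.84 and −5.52 log2 units.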

How the results depend on the processing

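The counts of genes at least 2 log2 units apart (391 higher, 116 lower) were 772 and 304 at 1 log2 unit, 213 and 60 at 3, and 696 and 226 in the control arrays alone. With values below background set to 5.43 they were 221 and 53, averaging a gene's probe sets gave 279 and 73, and with centred arrays 337 and 149. Leaving out each array in turn gave 394 to 467 higher and 116 to 131 lower. The limma counts (2710 higher, 2230 lower) were 1330 and 694 with a minimum difference of 1 log2 unit, 1836 and 4892 with centred arrays, and 2533 to 2690 and 2058 to 2267 with an array left out. The lower counts under the floor and the stricter thresholds follow from their construction, and for the probe set mean the cause was not tested. The filter on dim genes, the HUTU-80 pair as 1 sample, the construct as a term and the fit without trend kept every count within 1.5 times. The yardstick for a named gene was the largest of its SDs in the 3 lines. Its difference moved by at least that much in 171 of 209 genes under the floor and 96 with the probe set mean. It did so in 65 genes in control arrays alone and 19 with centring. No sign reversed among named genes of the condition. Under the floor, in control arrays alone or with an array left out, the condition does not allow a reversal. Background correction and normalization could not be varied on summarised values. No paired analysis was possible by replicate number because the titles carry none shared between lines, and the construct, which does tie arrays across lines, gave 2820 higher and 2406 lower as a term. Signal near background limits what can be said of dim genes, and 1 control array per line limits the control comparison.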

Other observations

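Several genes of cell death and innate sensing that belonged to no list were also apart in MDST8, and are given as values chosen after they were seen. GSDME, a pore-forming gasdermin, read 10.82, 10.43, 10.50 and 10.49 in MDST8 and 3.91 to 6.28 in the other lines. PYCARD, the adaptor of inflammasomes, read 7.74, 7.84, 7.52 and 7.70 against at most 3.89. CASP8, the initiator caspase of death receptors, was at 8.50 to 8.80, with means of 3.49 in HUTU-80 and 5.97 in NCI-H716, and the death receptor FAS read 9.14, 9.64, 9.32 and 10.39 against at most 6.87. TLR3, a receptor of double-stranded RNA, read 5.93, 5.96, 5.59 and 6.80 against at most 3.10. These genes were above background on all MDST8 arrays.

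Further surface and secreted proteins of stromal cells outside the lists were also higher. CTHRC1, a secreted protein of matrix-forming cells, read 10.86, 10.26, 10.35 and 9.64 against at most 3.70, and PDPN (podoplanin) read 8.93, 8.36, 8.56 and 8.83 against at most 3.13. STC1 (stanniocalcin) was highest in the MDST8 control, at 11.18, and read 9.37 to 10.03 with the constructs. On the lower side HNF4G, a nuclear receptor of intestinal epithelium, read 2.78, 2.46, 2.98 and 2.73 against 5.79 to 7.67, and HEY2, a target of Notch signalling, 2.80, 2.74, 2.87 and 3.26 against 6.16 to 7.78.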
